A study of Mus musculus with 11 samples.

Results

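Langerhans cells and dendritic cells are the antigen-presenting cells of the skin, and 10 genes that mark these cells, their subsets or their maturation were followed in whole-skin RNA after Treg depletion in neonatal mice. The genes were chosen by name as markers (Cd207, Epcam, Itgax, Flt3, Zbtb46, Xcr1, Batf3, Ccr7, Fscn1 and Cd40), and all 10 were found among the 49315 genes counted. The choice was made with earlier results of these data known. Counts of these and of other listed genes that passed a test, set beside shares of all genes, are therefore descriptions. Langerhans cells settle in the epidermis and are recognised by langerin, whereas conventional dendritic cells arise from Flt3-dependent precursors and divide into a cross-presenting cDC1 lineage, which needs Batf3, and a cDC2 lineage. On maturation, both kinds of cell raise costimulatory molecules and Ccr7, leave the skin and enter the draining lymph node. Tregs are known to restrain this process in many tissues.

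All mice were Foxp3-DTR mice (B6.129(Cg)-Foxp3tm3(DTR/GFP)Ayr/J) on a C57BL/6J background, in which Foxp3-expressing cells carry the receptor for diphtheria toxin (DT). The Treg-sufficient control group received PBS (n = 2 mice), and the other groups received DT intraperitoneally. ΔETreg mice (n = 3) received it on P6 and P8 and were harvested on P9, ΔLTreg mice (n = 3) received it on P10 and P12, and ΔTreg mice (n = 3) received it on P6, P8, P10 and P12. The ΔLTreg and ΔTreg mice were harvested on P13, and for the 2 control mice no harvest day is given in the labels. Controls were described as age-matched at both P9 and P13, without the day of each mouse, so age may differ in any comparison with control. No group received DT and kept its Tregs, so effects of the toxin and of Treg loss cannot be told apart in the comparisons with control. Each library came from the skin biopsy of 1 mouse, and the labels place all 11 libraries in 1 batch. Total counts per library ranged from 23377571 to 34159435. A count of 3, the most that was treated as near the limit of detection, corresponded to between 0.0891 and 0.129 CPM, the count normalised to library size with TMM factors, a limit that covers counting error only.

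Foxp3, the lineage factor of Tregs, had 20 and 14 counts in controls, 10, 16 and 11 in ΔETreg skin, 23, 13 and 13 in ΔLTreg skin and 9, 19 and 18 in ΔTreg skin. Foxp3 did not pass the test in any comparison with control, and its log2 fold change in ΔTreg skin was -0.30 (95% interval -0.995 to 0.39), so a larger fall than the lower bound lay outside the interval. In ΔETreg skin it was -0.49 (95% interval -1.20 to 0.22), with all 3 mice below both controls in CPM, and a fall within that interval was not detectable at this depth. The group names follow the treatment given. Ptprc, which encodes the pan-leukocyte protein CD45, was at 13.9 and 10.9 CPM in control skin, 10.6, 12.6 and 9.47 CPM in ΔETreg skin, 14.4, 18.8 and 9.64 CPM in ΔLTreg skin and 52.3, 39.6 and 47.8 CPM in ΔTreg skin. All 3 ΔTreg mice lay above the other 8 mice for Ptprc.

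The 10 genes differed widely in level. Per kilobase of joined exons, Epcam stood highest in control skin at 90.4 CPM per kilobase, followed by Fscn1 at 41.5, Cd207 at 2.64, Batf3 at 0.632, Zbtb46 at 0.565, Itgax at 0.526, Cd40 at 0.295, Xcr1 at 0.179, Flt3 at 0.154 and Ccr7 at 0.0568. Batf3, Zbtb46 and Itgax did not differ from each other in control skin beyond the spread between the mice. In ΔTreg skin Epcam (142 CPM per kilobase) and Fscn1 (38.8) still led, but Batf3 (2.26 ± 0.654, SD, n = 3), Cd40 (1.92 ± 0.0713) and Itgax (1.84 ± 0.573) now stood above Cd207 (0.909 ± 0.198). Batf3, Cd40 and Itgax overlapped within their spread there. Next came Ccr7 (0.708 ± 0.232) and Zbtb46 (0.662 ± 0.0538), which overlapped with each other and with Cd207 within their SDs. Last came Xcr1 (0.177 ± 0.029) and Flt3 (0.142 ± 0.021), which overlapped with each other.

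**Figure D1:**
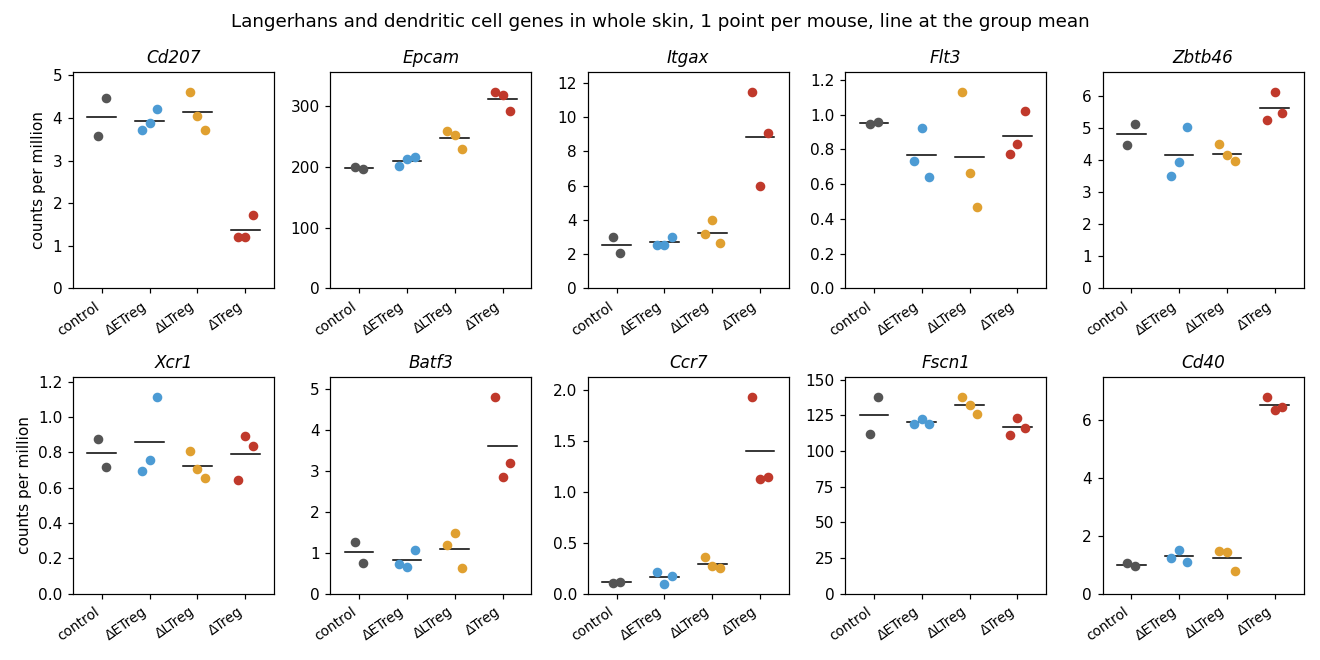
Level of each of the 10 genes in CPM (y axis, from 0, a separate scale for each gene) in the 4 groups (x axis), with 1 point per mouse and a line at the group mean. The 3 ΔTreg mice lay below the other mice for Cd207 and above them for Epcam, Itgax, Batf3, Ccr7 and Cd40. They also lay above them for Zbtb46, by a small margin that did not pass the test against control.

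The comparison of ΔTreg with control skin asked how these transcripts differed after DT from P6 to P12. Cd207 fell, and Epcam, Itgax, Batf3, Ccr7 and Cd40 rose, while Flt3, Zbtb46, Xcr1 and Fscn1 did not pass the test. Thus 6 of the 10 genes passed an adjusted p of 0.05 (edgeR's quasi-likelihood test, Benjamini-Hochberg adjustment over 18375 genes), against 21.5% of all genes tested. Of the 10, 5 were higher and 1 was lower, where 12.1% of all genes were higher and 9.39% lower. The median log2 fold change of the 10 genes was 0.44, beside -0.01 over all genes tested. As whole skin was sequenced, fewer cells of a type and less RNA per cell cannot be told apart in any of these values.

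Cd207 encodes langerin, the C-type lectin of Birbeck granules that defines Langerhans cells and is also made by a subset of dermal cDC1. It was at 3.57 and 4.46 CPM in control skin, 3.73, 3.88 and 4.20 CPM in ΔETreg skin, 4.62, 4.04 and 3.73 CPM in ΔLTreg skin and 1.201, 1.22 and 1.73 CPM in ΔTreg skin. The 8 control, ΔETreg and ΔLTreg mice were intermixed, and all 3 ΔTreg mice lay below every one of them. The raw counts behind the ΔTreg values were 28, 41 and 56, against 102 and 112 in control skin. Cd207 was 2.87-fold lower in ΔTreg than in control skin (log2 fold change -1.52, standard error 0.189, edgeR adjusted p = 0.000251). Relative to Ptprc the gap was wider, with 0.257 and 0.41 Cd207 counts per Ptprc count in control skin and 0.023, 0.0308 and 0.0362 in ΔTreg skin. Ptprc itself was higher in ΔTreg skin, and Epcam (14.4 and 18.1 against 6.19, 8.03 and 6.1), Flt3, Zbtb46, Xcr1 and Fscn1 also lay lower on this scale in all 3 ΔTreg mice than in both controls.

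Epcam encodes an adhesion molecule found on Langerhans cells and, at high levels, on follicle epithelium. It was at 200 and 197 CPM in control skin, 202, 212 and 217 CPM in ΔETreg skin, 259, 253 and 230 CPM in ΔLTreg skin and 324, 318 and 292 CPM in ΔTreg skin. The ΔLTreg mice lay above all control and ΔETreg mice, and the ΔTreg mice lay above all others. Epcam was 1.57-fold higher in ΔTreg than in control skin (log2 fold change 0.65, standard error 0.0695, edgeR adjusted p = 9.39e-05), opposite in direction to Cd207.

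Because Epcam is also epithelial, markers of keratinocytes and follicle epithelium were read beside it. Of 8 such genes, 1 rose (Krt14, a basal keratin, log2 fold change 0.40) and 1 fell (Krt10, a suprabasal keratin, -0.66). Both counts were near the shares over all genes, 12.1% higher and 9.39% lower, and the other 6 did not pass. Of these 6, Krt5 (0.26), Cldn1, a tight junction gene (0.19, edgeR adjusted p = 0.0579), Cdh1 (0.16) and Trp63 (0.15) were higher in all 3 ΔTreg mice than in both controls, as Epcam was, and Krt15 (-0.32) was lower in all 3. Their summed level, in which the inner root sheath keratin Krt71 was the most abundant gene, was 21590 and 18810 CPM in control skin, 16880, 21250 and 22080 CPM in ΔETreg skin, 21000, 24080 and 23000 CPM in ΔLTreg skin and 21430, 21650 and 21530 CPM in ΔTreg skin. None of the 8 was at 0. The part of epithelium in the Epcam difference was not tested.

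Itgax encodes CD11c, the integrin subunit carried by dendritic cells and by some macrophages and monocytes. It was at 2.98 and 2.07 CPM in control skin, 2.54, 2.56 and 3.00 CPM in ΔETreg skin, 3.16, 4.0 and 2.63 CPM in ΔLTreg skin and 11.5, 5.998 and 9.06 CPM in ΔTreg skin. Every ΔTreg mouse lay above the other 8, although the ΔTreg mice spread over a wide range. The difference from control was 3.47-fold (log2 fold change 1.79, standard error 0.283, edgeR adjusted p = 0.00115). Per Ptprc count, Itgax was at 0.214 and 0.19 in control skin and at 0.22, 0.152 and 0.189 in ΔTreg skin, so that the groups overlapped on this scale.

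Flt3 encodes the growth factor receptor of dendritic cell precursors and conventional dendritic cells. It had 27 and 24 counts in controls, 21, 28 and 15 in ΔETreg skin, 38, 17 and 15 in ΔLTreg skin and 18, 28 and 33 in ΔTreg skin. In CPM all 3 ΔETreg mice lay below both controls (at most 0.920 against at least 0.946) without passing the test. All other pairs of groups overlapped. The log2 fold change of Flt3 between ΔTreg and control skin was -0.11 with a 95% interval from -0.84 to 0.62 (edgeR adjusted p = 0.848).

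Zbtb46 encodes a transcription factor of the conventional dendritic cell lineage that endothelial cells also express. It was at 4.48 and 5.14 CPM in control skin, 3.52, 3.94 and 5.06 CPM in ΔETreg skin, 4.50, 4.16 and 3.98 CPM in ΔLTreg skin and 5.27, 6.15 and 5.47 CPM in ΔTreg skin. The ΔTreg mice stood above all others by a small margin that did not pass the test against control (log2 fold change 0.23, 95% interval -0.12 to 0.58, edgeR adjusted p = 0.337). Of 5 endothelial genes, Pecam1 (log2 fold change 0.69) and Lyve1 (1.87) rose in ΔTreg skin and Kdr (-0.67) and Cdh5 (-0.36) fell. Prox1 did not pass, although all 3 ΔTreg mice (at most 6.31 CPM) lay below both controls (at least 7.01 CPM). Over all libraries Pecam1 was the most abundant, although Cdh5 stood slightly above it in control skin (68.0 against 63.3 CPM) and ΔETreg skin (64.7 against 62.2 CPM), and the summed endothelial level was 186 and 207 CPM in control skin, 185, 196 and 190 CPM in ΔETreg skin, 199, 206 and 196 CPM in ΔLTreg skin and 250, 255 and 251 CPM in ΔTreg skin. The higher sum in ΔTreg than in control skin came from Pecam1 (mean 102 against 63.3 CPM) and Lyve1 (67.1 against 18.3 CPM), while Cdh5, Kdr and Prox1 lay lower. The part of endothelium in the Zbtb46 values was not tested.

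Xcr1 encodes the chemokine receptor that is restricted to cDC1. It had 25 and 18 counts in controls, 20, 23 and 26 in ΔETreg skin, 27, 18 and 21 in ΔLTreg skin and 15, 30 and 27 in ΔTreg skin. All groups overlapped. The 95% interval of its log2 fold change between ΔTreg and control skin ran from -0.67 to 0.67 (edgeR adjusted p = 1), so a change within those bounds was not detectable at this depth.

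Batf3 encodes the AP-1 family factor required by the cDC1 lineage and is also induced in activated T cells. It was at 1.26 and 0.757 CPM in control skin, 0.731, 0.657 and 1.07 CPM in ΔETreg skin, 1.19, 1.49 and 0.626 CPM in ΔLTreg skin and 4.80, 2.85 and 3.18 CPM in ΔTreg skin. The ΔTreg mice lay above all 8 other mice, which overlapped among themselves. Batf3 was 3.50-fold higher in ΔTreg than in control skin (log2 fold change 1.81, standard error 0.372, edgeR adjusted p = 0.00562). Without control mouse 2, whose Batf3 level was the lower of the pair, the log2 fold change was 1.49 and no longer passed (edgeR adjusted p = 0.0708, the highest of a range from 0.00848 with each mouse of the 2 groups left out in turn). Per Ptprc count, Batf3 was at 0.0907 and 0.0696 in control skin and at 0.0918, 0.072 and 0.0666 in ΔTreg skin. The groups thus overlapped on this scale, as for Itgax. Of the 2 cDC1 genes, Batf3 passed in the fit of all mice and Xcr1 did not, and the difference between them was not tested.

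Ccr7 encodes the receptor that guides mature dendritic cells, and also naive and central memory T cells, towards lymphatics and lymph nodes. It had 3 counts in each control mouse, 6, 3 and 4 in ΔETreg skin, 12, 7 and 8 in ΔLTreg skin and 45, 38 and 37 in ΔTreg skin. The ΔTreg mice were far above every other mouse, and the ΔLTreg mice lay above the control and ΔETreg mice. Since both control libraries held so few counts, the summed counts were compared, and ΔTreg skin was 12-fold above control with a 95% exact counting interval from 5.36 to 33.4. In the fit across all genes Ccr7 passed the test (edgeR adjusted p = 0.000232).

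Fscn1 encodes fascin, an actin-bundling protein of mature dendritic cells that other skin cells also make. It was at 112 and 138 CPM in control skin, 119, 122 and 119 CPM in ΔETreg skin, 138, 132 and 126 CPM in ΔLTreg skin and 111, 123 and 116 CPM in ΔTreg skin. The 2 control mice stood further apart than the group means. Its log2 fold change between ΔTreg and control skin was -0.10 (95% interval -0.27 to 0.08, edgeR adjusted p = 0.442). The sign turned with the control mouse kept, at -0.24 without control mouse 1 (edgeR adjusted p = 0.0391) and 0.06 without control mouse 2 (edgeR adjusted p = 0.697).

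Cd40 encodes the costimulatory receptor through which helper T cells license dendritic cells, and B cells, macrophages and some stromal cells express it too. It was at 1.05 and 0.956 CPM in control skin, 1.25, 1.51 and 1.11 CPM in ΔETreg skin, 1.49, 1.45 and 0.783 CPM in ΔLTreg skin and 6.82, 6.35 and 6.46 CPM in ΔTreg skin. The 3 ΔTreg mice were close together and well apart from the rest. Cd40 was 6.48-fold higher in ΔTreg than in control skin (log2 fold change 2.70, standard error 0.248, edgeR adjusted p = 3.32e-05), the smallest adjusted p among the 10 genes. Per Ptprc count it was at 0.0756 and 0.0879 in control skin and 0.13, 0.161 and 0.135 in ΔTreg skin. Cd40 thus remained above the control mice after scaling to Ptprc, as did Ccr7 (0.00756 and 0.011 against 0.0369, 0.0285 and 0.0239). This was not limited to ΔTreg skin, since Cd40 was also above control in all 3 ΔETreg mice (0.119, 0.12 and 0.118) and Ccr7 in all 3 ΔLTreg mice (0.0248, 0.0146 and 0.026), which overlapped with the ΔTreg mice. These ratios are descriptions and were not tested.

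**Figure D2:**
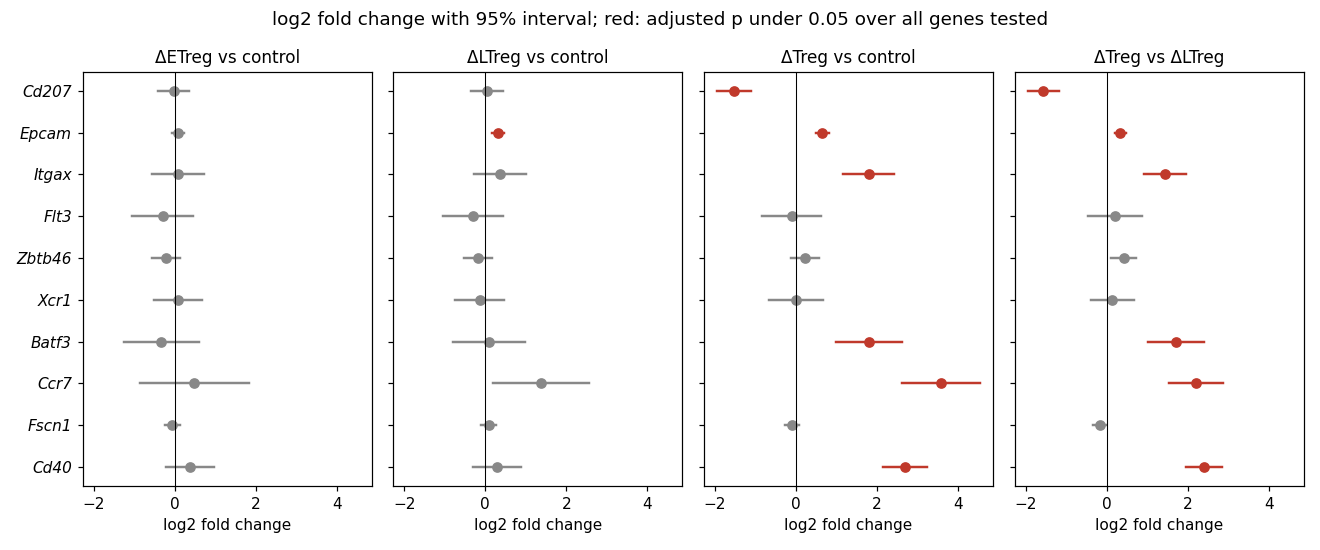
Log2 fold change (x axis) of the 10 genes (y axis) in 4 comparisons, with bars for the 95% interval from edgeR's fit and red marking an adjusted p under 0.05 over all genes tested. In ΔTreg against control skin Cd207 lay at -1.52 and Cd40 at 2.70, whereas all 10 intervals crossed 0 in ΔETreg against control skin.

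A direct comparison of ΔTreg with ΔLTreg skin, both harvested on P13, asked whether the longer depletion differed from depletion on P10 and P12 without a difference in age. The number of DT doses and the day of the first dose differed too. They cannot be told apart from the length of depletion. Again 6 of the 10 genes passed, against 16.8% of all genes tested, with 5 higher (10.7% of all genes) and 1 lower (6.11%). They were Cd207, with a log2 fold change of -1.57 (edgeR adjusted p = 0.000125), and Epcam (0.33), Itgax (1.44), Batf3 (1.71), Ccr7 (2.20) and Cd40 (2.40), which were higher in ΔTreg skin. Flt3 (0.20), Xcr1 (0.14) and Fscn1 (-0.18) did not pass. Zbtb46 had a log2 fold change of 0.42 with non-overlapping mice and an edgeR adjusted p of 0.0647, and the ΔTreg mice also lay below all ΔLTreg mice for Fscn1 (edgeR adjusted p = 0.124). The 6 calls were kept when any mouse of the 2 groups was left out. The fold changes contrast no control mouse, but the control libraries took part in the shared fit behind these adjusted p values. In a fit of the 2 groups alone the same 6 genes passed. Of the 8 markers of keratinocytes and follicle epithelium, 1 fell (Krt15, log2 fold change -0.665, edgeR adjusted p = 0.00136) and 7 did not pass. Among these 7, Krt14 (0.23) and Trp63 (0.10) were higher and Krt10 (-0.42) lower in every ΔTreg mouse than in every ΔLTreg mouse. Their part in the Epcam difference was not tested.

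In ΔLTreg against control skin, 1 of the 10 genes passed, against 4.55% of all genes tested (1.86% higher). It was Epcam, with a log2 fold change of 0.32 (standard error 0.0688, edgeR adjusted p = 0.0289). The call was lost without control mouse 1 (edgeR adjusted p = 0.106), without control mouse 2 (edgeR adjusted p = 0.126) and without ΔLTreg mouse 2 (edgeR adjusted p = 0.057), and also in a fit of these 2 groups alone (edgeR adjusted p = 0.177). Of the 8 markers of keratinocytes and follicle epithelium, 0 passed here. Krt15 (log2 fold change 0.345) and Krt5 (0.217) were higher in all 3 ΔLTreg mice than in both controls, as Epcam was. Their part in the Epcam difference was not tested. Cd207 was unresolved from control, with a 95% interval of its log2 fold change from -0.34 to 0.43. Ccr7 was 2.65-fold above control by summed counts, with a 95% exact counting interval from 1.07 to 7.86, but the fit across genes, which includes the spread between mice, did not call it (edgeR adjusted p = 0.182). The comparisons with control share the same 2 control libraries, so their values are not independent of each other.

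In ΔETreg against control skin, 0 of the 10 genes passed edgeR's test, against 0.00544% of all genes tested. At an unadjusted p under 0.05 the number was also 0, against 4.75% of all genes tested, and DESeq2's Wald test also called 0. The 1 gene called across the whole table was Atf3, a stress-induced transcription factor and not one of the 10. Without passing, Epcam and Cd40 lay higher and Flt3 lower in all 3 ΔETreg mice than in both controls. For Cd207 the 95% interval of the log2 fold change ran from -0.42 to 0.36, and for Epcam from -0.07 to 0.23. The intervals were wider for Itgax (-0.56 to 0.73), Cd40 (-0.23 to 0.97) and Batf3 (-1.26 to 0.59), so that changes within those bounds could not be resolved 1 day after the last dose. Ccr7, with 3 to 6 counts in these mice, had a ratio of summed counts of 1.41 with a counting interval from 0.5 to 4.52.

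The ΔETreg and ΔLTreg mice were harvested on P9 and P13, so age and time of depletion cannot be told apart between them. Between these groups 1 of the 10 genes passed, against 6.38% of all genes tested (3.12% lower). Epcam was lower in ΔETreg skin (log2 fold change -0.23, standard error 0.0611, edgeR adjusted p = 0.0475). This call was lost when any ΔETreg mouse was left out, and also without ΔLTreg mouse 1 or 2 (edgeR adjusted p between 0.0870 and 0.149), with library size only (edgeR adjusted p = 0.0879) and in a fit of the 2 groups alone (edgeR adjusted p = 0.0999). Of the 8 markers of keratinocytes and follicle epithelium, Krt15 was lower as well (-0.40, edgeR adjusted p = 0.0483) and 7 did not pass, among them Krt5, which was lower in all 3 ΔETreg mice (-0.21, edgeR adjusted p = 0.202). Their part in the Epcam difference was not tested. Ccr7 lay lower in all 3 ΔETreg mice than in all 3 ΔLTreg mice without passing the test (log2 fold change -0.89, edgeR adjusted p = 0.261), and so did Fscn1 (-0.14, edgeR adjusted p = 0.29).

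The genes that support Langerhans cells were then followed beside Cd207. In ΔTreg against control skin, 4 of 12 genes of Langerhans cell development and maintenance rose, 1 fell and 7 did not pass, with a median log2 fold change of 0.21 beside -0.01 over all genes. In this comparison 12.1% of all genes tested were higher and 9.39% lower, shares that apply to each list below. Ly75, the endocytic receptor DEC-205 (log2 fold change 1.49), Spi1, the myeloid factor PU.1 (1.54), Tgfb1 (0.64) and Ahr, a ligand-activated factor active in Langerhans cells (0.49), rose. Tgfbr1, a receptor chain for TGF-beta (-0.22), was the gene that fell. Il34, the keratinocyte ligand that maintains Langerhans cells through Csf1r, was at -0.25 (edgeR adjusted p = 0.191), and Csf1r was at 0.72 (edgeR adjusted p = 0.068). Id2 and Runx3, transcription factors that Langerhans cells require, were at 0.14 and 0.09 and did not pass. In no other comparison with control did any of these 12 genes pass. In ΔTreg against ΔLTreg skin, at the same age, 8 of the 12 rose and 0 fell, where 10.7% of all genes rose. There Id2 (0.27, edgeR adjusted p = 0.0109), Runx3 (0.41, edgeR adjusted p = 0.0323), Csf1r (1.12, edgeR adjusted p = 0.00598) and Tgfbr2 (0.74, edgeR adjusted p = 0.00161) were among those that rose. Every ΔLTreg mouse itself lay below both controls, without passing, for Tgfbr2 (-0.45), Runx3 (-0.32) and Tgfbr1 (-0.205). Csf1r was at -0.40 there, with overlapping mice. Between ΔTreg and ΔLTreg skin Tgfbr1 was at -0.01 and did not pass. Tgfbr2 was also higher in ΔETreg than in ΔLTreg skin (0.46, edgeR adjusted p = 0.0482). Macrophages express Csf1r and Spi1 too, and 6 of 10 macrophage and monocyte genes rose between ΔTreg and ΔLTreg skin, among them Mrc1 (2.96) and Cd163 (2.32). Their part was not tested.

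Of 8 other genes of the cDC1 lineage, 5 rose in ΔTreg against control skin and 3 did not pass, with a median log2 fold change of 1.01. Clec9a, which like Xcr1 is largely restricted to cDC1, had 18 and 10 counts in controls and 15, 24 and 23 in ΔTreg skin and did not pass (log2 fold change 0.41, 95% interval -0.41 to 1.23, edgeR adjusted p = 0.478), and nor did Wdfy4 (0.37, 95% interval -0.23 to 0.97) and Cadm1 (-0.01). Irf8 (2.13), Itgae, an integrin of intraepithelial T cells too (1.31), and Cd8a were among those that rose. Cd8a, a chain of the T cell coreceptor CD8 too, had 0 and 2 counts in controls and 238, 236 and 296 in ΔTreg skin. It also stood in the list of T cell genes, so the counts of the 2 lists are not independent.

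For cDC2, 4 of 7 tested genes rose in ΔTreg against control skin and 3 did not pass. Mgl2, a lectin of dermal cDC2 and macrophages, had 287 and 251 counts in controls, 279, 275 and 166 in ΔETreg skin, 265, 171 and 207 in ΔLTreg skin and 1748, 1618 and 2121 in ΔTreg skin (log2 fold change 2.65). Clec10a, a related lectin, rose by a log2 fold change of 2.63, and Ccl17, a chemokine of cDC2 and activated Langerhans cells, by 4.25. Cd209a and Irf4, also markers of cDC2, were at -0.59 and 0.13 and did not pass. Clec4a4, the eighth gene, had 5 counts over all libraries and was not tested.

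The genes of mature migratory dendritic cells were followed beside Ccr7, Fscn1 and Cd40. In ΔTreg against control skin 14 of 18 tested genes rose and 4 did not pass, with a median log2 fold change of 1.18. Cd274, which encodes PD-L1, had 89 and 53 counts in controls and 899, 1208 and 869 in ΔTreg skin (log2 fold change 3.68). Ccl22, a chemokine of mature dendritic cells that attracts Ccr4-bearing T cells, had 61 and 49 counts in controls and 350, 357 and 390 in ΔTreg skin (2.61), and Nfkb2, a subunit of the alternative NF-kappaB pathway, rose by 0.91. Cd86 (1.39) and Cd80 (1.16), the ligands of CD28, rose as well. Like Fscn1, Cacnb3 (-0.08), Cd200 (-0.28) and Cd83 (0.31) did not pass, and nor did Ebi3 (1.21, edgeR adjusted p = 0.0939). Il12b and Il4i1 were too low to be tested. In ΔLTreg against control skin 1 of these 18 genes passed, a share near the 4.55% of all genes, namely Cd274 at a log2 fold change of 1.14 (edgeR adjusted p = 0.0377), and in ΔETreg against control skin 0 of 18 passed in edgeR's test.

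Genes of CD40 signalling were read beside Cd40. In ΔTreg against control skin 7 of 10 rose and 3 did not pass, with a median log2 fold change of 0.63. The ubiquitin ligase Birc3 (1.12), the kinase Map3k14 (1.58) and the subunits Relb (1.05), Nfkb2 (0.91) and Nfkb1 (0.55) were among those that rose. Traf3 (0.02), Traf6 (0.01) and Traf2 (0.17) did not pass. In ΔETreg and in ΔLTreg against control skin 0 of the 10 passed. Even so, Map3k14 (0.47 in ΔETreg and 0.45 in ΔLTreg skin), Nfkb2 (0.29 and 0.26) and Traf5 (0.16 and 0.19) lay above both controls in every mouse of these groups. Traf6 (-0.12 and -0.18) lay below them. Relb (0.39) and Nfkb1 (0.08) were above both controls in every ΔETreg mouse only, and Traf2 (0.11) in every ΔLTreg mouse only. Nfkb2, Relb, Birc3 and Traf1 also stood in the list of mature migratory dendritic cells, so the counts of the 2 lists are not independent.

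The ligands of the receptors among the 10 genes were at low to moderate levels. Flt3l, the ligand of Flt3, had 119 and 72 counts in controls and 173, 269 and 260 in ΔTreg skin, and rose by a log2 fold change of 1.15 (edgeR adjusted p = 0.000792), whereas its receptor did not pass. Xcl1, the ligand of Xcr1 made by NK and CD8 T cells, had 21 and 24 counts in controls and 41, 70 and 67 in ΔTreg skin (1.23, edgeR adjusted p = 0.00378), and again the receptor did not pass. Cd40lg, the ligand of Cd40 on activated T cells, had 0 and 2 counts in controls, 0 counts in each of the 6 ΔETreg and ΔLTreg mice and 25, 12 and 11 counts in ΔTreg skin. By summed counts Cd40lg was 14.4-fold above control (95% exact counting interval 3.78 to 122), with an edgeR adjusted p of 0.0521. Against ΔLTreg skin it passed (edgeR adjusted p = 0.0149).

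Ccl19, a ligand of Ccr7, had 3 and 8 counts in controls and 11, 22 and 29 in ΔTreg skin and rose by a log2 fold change of 1.71 (edgeR adjusted p = 0.018). This value is uncertain, because near-identical copies of the gene lie on chromosome 4 and the authors counted unique reads. One such copy, Ccl19-ps1, named after its values were seen, had 3 and 5 counts in controls, 6, 2 and 2 in ΔETreg skin, 6, 2 and 4 in ΔLTreg skin and 56, 119 and 150 in ΔTreg skin (log2 fold change 4.53). Ccl21a, the other ligand of Ccr7, was listed at 0 in every library and also has near-identical copies, so its level was not measured here. Csf1, a growth factor of macrophages and monocyte-derived cells, rose by a log2 fold change of 1.17, and Csf2, which encodes GM-CSF, had 1 and 4 counts in controls and 7, 8 and 6 in ΔTreg skin and was not tested.

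Genes of other leukocytes that can express Itgax, Batf3, Ccr7 or Cd40 were read as well. Of 10 macrophage and monocyte genes, 4 rose against control and 6 did not pass, and the 3 with the smallest p were Mrc1 (log2 fold change 2.03), Cd163 (1.70) and Cd68 (1.25). Mrc1 was the most abundant in ΔTreg skin (162 CPM, with Lyz2 at 96.2) and over all libraries, although Lyz2 stood above it in control (56.8 against 39.4 CPM) and ΔLTreg skin (52.8 against 20.9 CPM) and level with it in ΔETreg skin (38.5 against 38.1 CPM), and the summed level of these genes was 220 and 157 CPM in control skin, 171, 171 and 117 CPM in ΔETreg skin, 145, 210 and 97.0 CPM in ΔLTreg skin and 543, 388 and 499 CPM in ΔTreg skin. As for Itgax, ΔTreg mouse 2 was the lowest of its group, and the same held for Ptprc and for the summed T cell and NK cell genes. None of the 10 macrophage and monocyte genes was at 0, and their part in the Itgax and Cd40 differences was not tested.

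Among T cell genes, 7 of 8 rose in ΔTreg against control skin. Their summed level, led by Cd3g, was 12.99 and 14.7 CPM in control skin, 11.7, 14.3 and 15.0 CPM in ΔETreg skin, 18.4, 16.2 and 14.7 CPM in ΔLTreg skin and 62.9, 50.1 and 62.5 CPM in ΔTreg skin. Cd8b1, of the CD8 coreceptor, had 1 and 0 counts in controls and 109, 107 and 125 in ΔTreg skin, and Cd3d rose by a log2 fold change of 2.16. The part of T cells in the Batf3 and Ccr7 differences was not tested.

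NK cell genes rose in 4 of 4 cases (Klrk1, Eomes, Klrb1c and Ncr1). Their summed level was 1.47 and 1.19 CPM in control skin, 1.08, 1.15 and 1.11 CPM in ΔETreg skin, 1.94, 2.35 and 1.28 CPM in ΔLTreg skin and 6.73, 5.08 and 6.52 CPM in ΔTreg skin. Klrk1 was the most abundant and had a log2 fold change of 1.83. Eomes had 1 and 0 counts in controls and 26, 15 and 29 in ΔTreg skin, and Klrb1c had 1 and 3 against 7, 23 and 16. Of B cell genes, a further possible source of Cd40 and Ccr7, Cd79b (log2 fold change 0.71) and Cd79a (0.06) did not pass and Ms4a1 was too low to be tested.

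Of the plasmacytoid dendritic cell list, 3 of 6 tested genes rose, namely Bst2, an interferon-induced gene in many cells (log2 fold change 2.25), Spib (1.86) and Pacsin1 (1.19). Siglech, the defining marker of that lineage in mice, had 1 to 7 counts per library and was too low to be tested.

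The control and ΔLTreg mice were uneven in monocyte genes, whose part in the spread of Itgax and Batf3 was not tested. Ly6c2, a marker of inflammatory monocytes, had 71 counts in control mouse 1 and 3 in control mouse 2, and 49, 117 and 6 counts in the ΔLTreg mice. Ccr2, the receptor of such monocytes, had 316 and 81 counts in the controls, and the ΔLTreg mice had 245, 306 and 55. Itgax (2.98 against 2.07 CPM) and Batf3 (1.26 against 0.757 CPM) were likewise higher in control mouse 1 than in control mouse 2, and both were lowest in ΔLTreg mouse 3 of its group. For Cd207 the order was the reverse in the control pair (3.57 against 4.46 CPM).

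For Cd207, Xcr1 and Ccr7, the 5 genes with the most similar log2 CPM over the 11 libraries were listed as a description, among 13896 or 13897 other genes with a mean of at least 50 counts. The genes most like Cd207 were Sostdc1 (Pearson r = 0.982), Aplnr (0.977), Klhl8 (0.970), Ttyh2 (0.968) and Dlk1 (0.967), all of which fell in ΔTreg against control skin, with log2 fold changes from -2.39 for Dlk1 to -0.44 for Ttyh2. Those most like Ccr7 were Ptpn1 (0.990), Flt1 (0.989), Cd38 (0.987), Ctla2a (0.984) and Orai1 (0.982), all of which rose. Correlations after subtraction of each group's mean were lower for these 2, from 0.375 to 0.720 for Cd207 and from 0.702 to 0.865 for Ccr7. For the genes listed with Xcr1 they were higher, from 0.871 to 0.949. Those most like Xcr1 were Il22ra1 (0.901), Gm10052 (0.836), 1700096K18Rik (0.828), Gm11532 (0.820) and Pcbp3 (0.783), none of which passed between ΔTreg and control skin. The libraries share groups and depth, and with counts of 15 to 30 the order of genes behind Xcr1 carries little information.

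The position of each gene on GRCm38 was taken from GENCODE M21. Cd207 (ENSMUSG00000034783) lies at chr6:83671215-83677857, Epcam (ENSMUSG00000045394) at chr17:87635979-87651129, Itgax (ENSMUSG00000030789) at chr7:128129547-128150657, Flt3 (ENSMUSG00000042817) at chr5:147330741-147400489 and Zbtb46 (ENSMUSG00000027583) at chr2:181387762-181459426. Xcr1 (ENSMUSG00000060509) lies at chr9:123852315-123862029, Batf3 (ENSMUSG00000026630) at chr1:191097847-191108945, Ccr7 (ENSMUSG00000037944) at chr11:99144196-99155077, Fscn1 (ENSMUSG00000029581) at chr5:142960343-142973185 and Cd40 (ENSMUSG00000017652) at chr2:165055627-165072948. No exon of these 10 genes overlaps an exon of another annotated gene on either strand.

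Promoter windows of 300 bases from RefSeq (GRCm38.p6), 250 before to 50 after the gene start, were matched for 8 of the 10 genes, Ccr7 and Cd40 being the others. They were searched on both strands for motifs of factors active in dendritic cells. The AP-1 and BATF site TGANTCA was found for Cd207, Itgax and Zbtb46, 3 of 8, where 7.81% of 32851 promoters hold it. The PU.1 core GAGGAA was found for Cd207 and Batf3, against 28.3% of all promoters, and the GAS motif TTCNNNGAA for Batf3, against 8.3%. The ISRE core GAAANNGAA (8.56% of all promoters) and the NF-kappaB consensus (8.46%) were found in none of the 8. The Zbtb46 window lay in an intron of the GENCODE gene, and 163 of the 250 upstream bases for Batf3 lay in its exons.

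The upstream 250 bases are shown for Cd207, which fell, and Itgax, which rose, because a match to the AP-1 motif stood before both genes. The first is chr6:83677858-83678107 on the minus strand, directly before the gene, and the second is chr7:128129300-128129549 on the plus strand, whose last 3 bases lie in the first annotated exon. Capitals mark the motif matches. In Cd207 they are the AP-1 site, 7 to 1 bases before the start, and the PU.1 core on the opposite strand, 118 to 113 bases before it. In Itgax they are the AP-1 site, 56 to 50 bases before the start. A match describes letters only and is no evidence of binding.
Cd207: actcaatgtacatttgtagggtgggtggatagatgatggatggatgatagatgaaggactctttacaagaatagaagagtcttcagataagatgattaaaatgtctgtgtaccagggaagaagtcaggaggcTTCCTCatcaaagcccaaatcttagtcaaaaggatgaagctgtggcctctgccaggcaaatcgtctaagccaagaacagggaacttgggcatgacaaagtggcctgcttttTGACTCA
Itgax: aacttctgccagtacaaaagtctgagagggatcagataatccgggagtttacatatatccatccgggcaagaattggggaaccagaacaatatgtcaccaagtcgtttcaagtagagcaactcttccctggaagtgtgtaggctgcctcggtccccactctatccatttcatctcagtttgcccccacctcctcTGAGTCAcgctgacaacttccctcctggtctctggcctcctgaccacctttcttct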

How the data were processed

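Bulk RNA was sequenced from whole skin of 11 mice. Per the labels, reads were trimmed with Trimmomatic 0.36, mapped to GRCm38 with STAR 2.5.2b and counted with featureCounts (Subread 1.5.2). The authors deposited raw counts of unique exon reads, without normalization; strand setting and annotation release are not given in the sources used here. The tests used edgeR 4.0.16 under R 4.3.3. Its filterByExpr kept 18375 of 49315 genes, libraries were scaled by TMM, and 1 fit of 4 group means served 5 comparisons by quasi-likelihood tests with Benjamini-Hochberg adjustment. Standard errors were taken as log2 fold change over the square root of F. Log2 CPM used a prior count of 2. DESeq2 1.42.0, other scalings and filters, and each mouse left out were alternatives. Methods were tested on simulated data.

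Named genes were all members, the 3 smallest p of each other list in ΔTreg against control skin, all ligands and the 5 most similar genes. Atf3, Foxp3, Ccl19-ps1 and further list genes are exceptions, picked once their values were known. Members and lists were chosen with earlier results of these data known.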

Additional observations from a re-analysis of the deposited data

Results flagged for a closer look

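Epcam differed between the mice depleted early and late. Its log2 fold change in ΔETreg against ΔLTreg skin was -0.23 (edgeR adjusted p = 0.0475), with all 3 ΔETreg mice below all 3 ΔLTreg mice. The call was lost in 5 of 6 fits with a mouse left out, with library size only and in the 2 groups alone. The epithelial keratin Krt15 was lower too (-0.40, edgeR adjusted p = 0.0483), and its part in the Epcam difference was not tested. The groups also differed in age, P9 against P13, and the effects of age and of the time of depletion cannot be told apart.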

How the results depend on the processing

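In ΔTreg against control and against ΔLTreg skin, the number of the 10 genes called stayed between 5 and 7 under every alternative run. Of 562 values of single genes under the alternatives, 518 kept their direction and their side of the threshold, 31 reversed, 12 lost and 1 gained a call, and none of the 31 had been called. The count of at least 10 in every library left Ccr7 without a value, as did the 2 groups alone in the 3 comparisons without ΔTreg skin. No paired analysis was possible because the labels give no replicate numbers that pair mice. With 1 control mouse left, that mouse was assumed to vary like the others. Except where fewer mice or genes entered the fit, the cause of a change was not tested.

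For ΔETreg against control skin, 1 gene of the whole table was called; DESeq2 called 8, no filter 54, at least 10 counts in every library 0, and the libraries of the 2 groups alone 0, and 0 to 7 were called with a mouse left out. For ΔLTreg against control skin (836 genes), no filter gave 1790, the 2 groups alone 154 and a mouse left out 292 to 903. With a mouse left out, ΔTreg against control skin (3946) gave 2026 to 3493 and ΔTreg against ΔLTreg skin (3096) gave 1987 to 2942. For ΔETreg against ΔLTreg skin (1173), no filter gave 2173, the 2 groups alone 540 and a mouse left out 353 to 1172. Epcam was the 1 of the 10 genes called in ΔLTreg against control skin, and the number called was 0 in the 2 groups alone and 0 to 1 with a mouse left out. In ΔETreg against ΔLTreg skin it was 0 with library size only, 0 in the 2 groups alone and 0 to 1 with a mouse left out.

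These ranges of log2 fold changes, with a mouse left out, crossed 0. In ΔETreg against control skin they were -0.184 to 0.136 for Cd207 (0.005 with library size only), -0.146 to 0.377 for Itgax, -0.137 to 0.233 for Xcr1, -0.642 to 0.0915 for Batf3 and -0.201 to 0.101 for Fscn1. In ΔLTreg against control skin they were -0.112 to 0.209 for Cd207, -0.273 to 0.0135 for Xcr1, -0.213 to 0.521 for Batf3 and -0.0631 to 0.238 for Fscn1. In ΔTreg skin they were -0.241 to 0.0564 for Fscn1 against control, -0.138 to 0.154 for Xcr1 against control (-0.0002 in the main fit, 0.0036 with RLE size factors, 0.0046 with no filter, 0.0157 with at least 10 counts in every library and 0.0005 in the 2 groups alone) and -0.0582 to 0.641 for Flt3 against ΔLTreg. In ΔETreg against ΔLTreg skin they were -0.136 to 0.0181 for Cd207, -0.242 to 0.456 for Flt3, -0.174 to 0.094 for Zbtb46 and -0.168 to 0.247 for Cd40.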
